A study of Mus musculus with 10 samples.

Results

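Chemokine receptors are the proteins that let blood cells sense chemokines, small secreted proteins that direct migration. They span the membrane and signal through G proteins of the Gi class, after which receptor kinases and arrestins silence them. In bone marrow, Cxcr4 binds Cxcl12 from stromal cells and holds stem cells, progenitors and young neutrophils in place, while Cxcr2 and Ccr2 are known for the release of neutrophils and of inflammatory monocytes. The list described here holds 9 receptor genes (Cxcr4, Cxcr2, Cxcr3, Ccr1, Ccr2, Ccr9, Cx3cr1, Ccrl2 and Ackr3), found by symbol among the 38887 Ensembl gene identifiers of the deposited table. All 9 were found, and 8 passed the filter on low counts; Ackr3 did not.

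The RNA came from marrow hematopoietic progenitor cells, and all donors were mice bearing Lewis lung carcinoma, a transplantable lung tumour of the mouse. Both groups carried the tumour: 5 libraries came from mice given vehicle and 5 from mice treated for 2 weeks with BMS-595, which inhibits the kinase CK2 (group name CK2i), at 60 mg/kg. The series has no tumour-free group. Strain, age, the way progenitors were isolated and whether each library is 1 mouse are not stated in the labels. P-values therefore measure the spread between these libraries, which may in part be technical.

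Total estimated counts were 34127674 to 43636152 per library. Levels are given as FPKM, fragment counts scaled to transcript length and library size, which allow different genes to be set in order. CK2i libraries 2 and 5 stood apart on the first principal component of log2 CPM (40.8% of the variance), where they scored 43.3 and 43.7. The other CK2i libraries scored -4.10 to 12.5, and the vehicle libraries scored -29.6 to -9.37. Results for the receptors are therefore also given without CK2i 2 and 5. The progenitor markers Kit and Cd34 averaged 56.9 and 76.5 FPKM in vehicle libraries and 48.3 and 84.2 FPKM in CK2i libraries. Genes known as markers of other cell types were also abundant in vehicle libraries. The platelet chemokine Pf4 averaged 1425 FPKM, the eosinophil granule gene Prg2 743 FPKM and the immunoglobulin joining chain Jchain 482 FPKM. Whether progenitors or other cells held these transcripts was not tested.

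The receptor genes lie on 3 chromosomes (GRCm38 coordinates, GENCODE M21; all 9 are protein-coding). Cxcr4 (ENSMUSG00000045382; chromosome 1, 128588199 to 128592293, minus strand), Cxcr2 (chromosome 1, 74153989 to 74161246, plus strand) and Ackr3 (chromosome 1, 90203980 to 90216751, plus strand) share a chromosome. Cxcr3 lies on the X chromosome (101731535 to 101734269, minus strand). The other 5 are on chromosome 9: Ccrl2 (111054486 to 111057519, minus), Cx3cr1 (119901616 to 120069879, minus), Ccr9 (ENSMUSG00000029530; 123678439 to 123784330, plus), Ccr1 (123962124 to 123968692, minus) and Ccr2 (124101950 to 124113557, plus). Of the chemokine receptor genes near Ccr2, Ccr1l1 averaged 0.05 FPKM and Ccr3 0.666 FPKM in vehicle libraries.

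The sequence just before the annotated RefSeq start held more CpG dinucleotides in Cxcr4 than in the other 8 genes. The 250 bases upstream of the annotated RefSeq start (GRCm38.p6) are shown for the 2 most abundant receptors, Cxcr4 and Ccr2, and for Ccr9, the receptor that fell. They are written 5′ to 3′ on the gene's strand, and capitals mark matches on either strand to any of 7 motifs. These were the GC box, read as GGGCGG, the CCAAT box, read as those letters, the TATA box, read as TATAAA, the C/EBP motif, read as TTGCNNAA, the RUNX motif, read as TGTGGT, the ETS motif, read as AGGAAGT, and the NRF1 motif. The starts used for Ccr9 and Cx3cr1 lie inside longer GENCODE gene models, as do their whole windows. Most of the Ccr2 window, part of the Cxcr3 window and some of the Ccrl2 windows also lie inside the GENCODE models. Those windows are thus upstream of the RefSeq start only.
Cxcr4, chr1:128592300-128592549, minus strand: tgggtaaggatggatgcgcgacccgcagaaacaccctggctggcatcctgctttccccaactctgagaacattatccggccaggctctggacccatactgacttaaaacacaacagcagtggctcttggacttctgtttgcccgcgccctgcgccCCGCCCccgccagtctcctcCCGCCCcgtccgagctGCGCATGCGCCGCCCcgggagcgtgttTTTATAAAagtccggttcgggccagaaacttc
Ccr2, chr9:124101933-124102182, plus strand: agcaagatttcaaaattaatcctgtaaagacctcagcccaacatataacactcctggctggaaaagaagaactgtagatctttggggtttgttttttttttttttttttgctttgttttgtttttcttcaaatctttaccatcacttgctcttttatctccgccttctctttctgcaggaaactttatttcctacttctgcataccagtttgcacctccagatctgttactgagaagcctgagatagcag
Ccr9, chr9:123766961-123767210, plus strand: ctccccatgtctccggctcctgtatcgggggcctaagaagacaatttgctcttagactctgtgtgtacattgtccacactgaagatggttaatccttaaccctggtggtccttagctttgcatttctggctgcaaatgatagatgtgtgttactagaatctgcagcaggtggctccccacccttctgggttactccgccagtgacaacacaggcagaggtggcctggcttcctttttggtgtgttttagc
The Cxcr4 window held 19 CpG dinucleotides, more than 80.3% of the 32851 windows of that length in the RefSeq table, whose median was 6. It held 3 GC boxes, 1 NRF1 match that overlaps the last of them, and 2 overlapping TATA matches, 1 on each strand. A GC box was found in 32.7% of all windows, an NRF1 match in 0.782% and a TATA match in 12.4%. The windows of Cxcr2, Ccr1 and Ccr2 held 1 CpG each, those of Cxcr3 and Ccr9 held 3, that of Cx3cr1 held 4, those of Ccrl2, which has 3 annotated starts, held 5, 6 and 7, and that of Ackr3 held 7. The Ccr2 and Ccr9 windows had none of the 7 motifs. These are matches of letters, and no binding was measured.

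In vehicle libraries Cxcr4 was the most abundant receptor, at 76.4 ± 10.1 FPKM (SD, n = 5 for all group values). Ccr2 followed at 32.0 ± 7.64 FPKM, Cx3cr1 at 5.02 ± 1.29, Cxcr2 at 3.78 ± 0.320, Ccr1 at 2.49 ± 0.585, Ccrl2 at 2.17 ± 0.190, Ccr9 at 1.09 ± 0.264, Cxcr3 at 0.220 ± 0.0616 and Ackr3 at 0.0520 ± 0.0110 FPKM. The ranges of neighbours in this order overlapped only between Cx3cr1 and Cxcr2 and between Ccr1 and Ccrl2, so that these 2 pairs are not separated by more than their spread. In CK2i libraries the order was the same except that Ccrl2 stood before Ccr1, and the ranges of Cx3cr1, Cxcr2, Ccrl2 and Ccr1 overlapped from one to the next, as did those of Cxcr3 and Ackr3. Over the 9 genes and 16 further chemokine receptors, Cxcr4 held 57.2% to 60.7% of the summed FPKM of a vehicle library and 58.4% to 66.4% of that of a CK2i library.

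**Figure D1:**
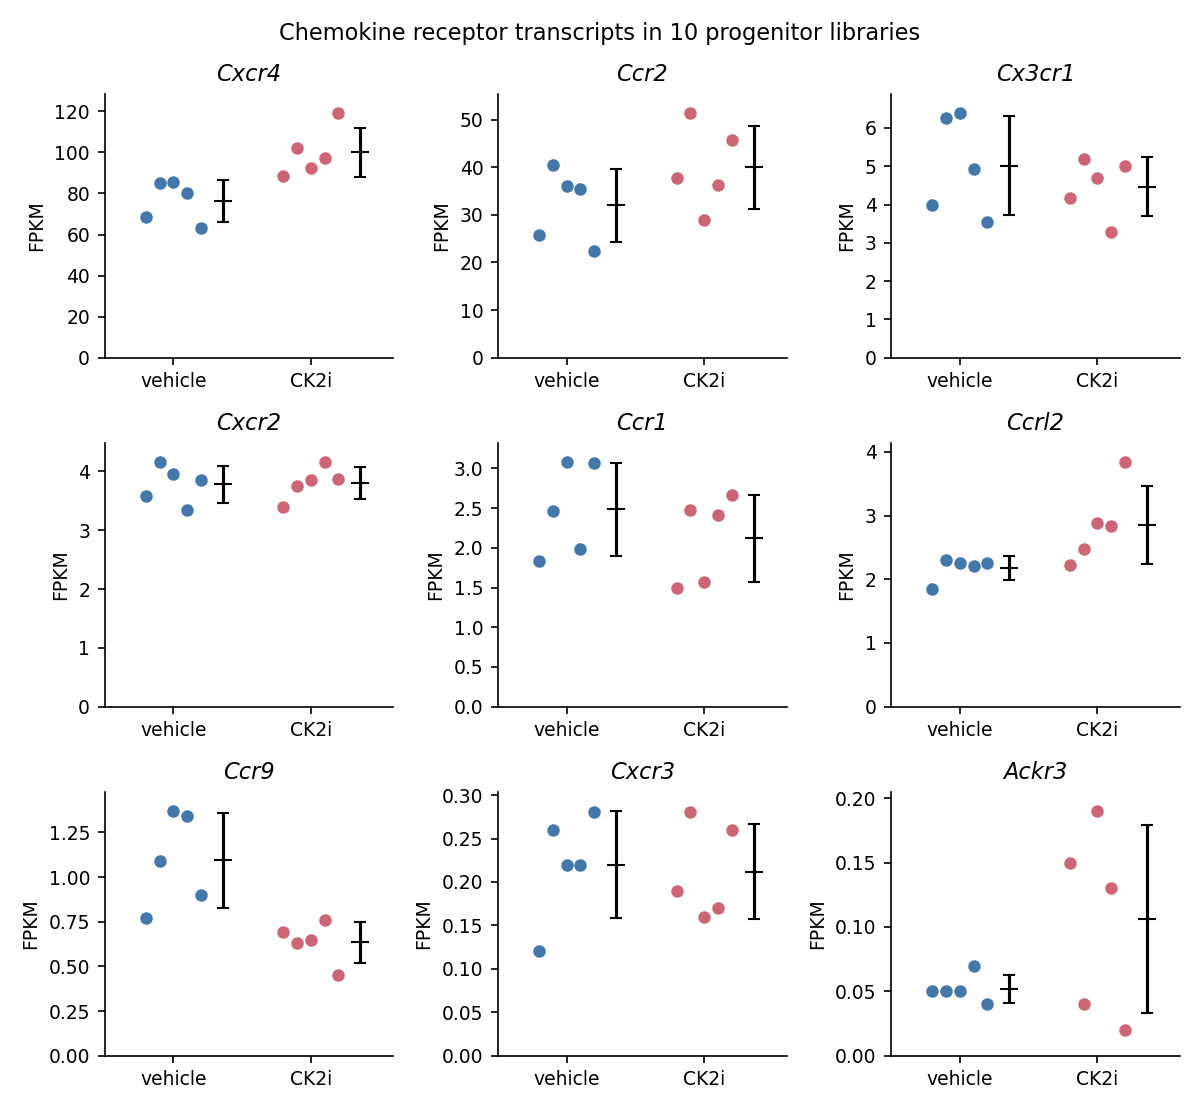
FPKM (y axis, linear, from 0) of each of the 9 receptors in the 5 vehicle and 5 CK2i libraries, numbered 1 to 5 from left to right; the bar beside each group is the mean ± SD. All CK2i points lie above all vehicle points for Cxcr4 (88.6 to 119.2 against 63.1 to 85.3 FPKM) and below them for Ccr9 (0.45 to 0.76 against 0.77 to 1.37 FPKM), while those of Cxcr2 cover the same range.

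Between the groups, 1 of the 8 tested receptors rose in CK2i libraries, Cxcr4, and 1 fell, Ccr9, in edgeR's quasi-likelihood test with Benjamini-Hochberg adjustment over the 14346 genes tested. Over all genes the same test called 13.2%, with 6.43% higher and 6.76% lower. The other 6 did not pass, and the median log2 fold change over the 8 was -0.01, against -0.00 over all genes tested. In RNA from many cells at once, fewer cells of a type and less RNA per cell cannot be told apart, which holds for each difference below. Without CK2i 2 and 5 none of the 8 passed, where 1.2% of 14583 genes did.

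Cxcr4, the retention receptor, was at 68.4, 84.9, 85.3, 80.1 and 63.1 FPKM in vehicle 1 to 5 and at 88.6, 102.0, 92.6, 97.4 and 119.2 FPKM in CK2i 1 to 5. Each CK2i library lay above each vehicle library, the highest being CK2i 5. In CPM, counts scaled to library size with TMM, the groups were also apart, at 83.2 to 109.5 and 113 to 151 CPM. Cxcr4 was the 1 of the 8 receptors whose groups did not overlap in CPM, against 10.9% of all genes tested, 5.18% with CK2i higher and 5.76% with CK2i lower. The rise was 0.36 ± 0.09 on the log2 scale (SE; edgeR adjusted p = 0.0347), a fold of 1.28 with a 95% interval of 1.11 to 1.48. It was not called without vehicle 1 (adjusted p = 0.0822), vehicle 4 (0.0649), vehicle 5 (0.0729), CK2i 2 (0.0726) or CK2i 5 (0.0748), and was 0.26 ± 0.09 without both CK2i 2 and 5 (0.156). In a fit with 1 surrogate variable, an unnamed source of variation estimated from all genes that had a correlation of 0.70 with the group, the difference was 0.14 ± 0.09 (edgeR adjusted p = 0.618). 

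Ccr9, the receptor for Ccl25 that marks gut-homing T cells, plasmacytoid dendritic cells and early lymphoid progenitors, was at 0.77, 1.09, 1.37, 1.34 and 0.90 FPKM in vehicle 1 to 5 and at 0.69, 0.63, 0.65, 0.76 and 0.45 FPKM in CK2i 1 to 5. Vehicle 3 and 4 were highest and CK2i 5 lowest, and the groups just missed each other between 0.76 and 0.77 FPKM. In CPM they touched, with CK2i 4 at 2.11 and vehicle 1 at 2.11, and 4 of 5 CK2i libraries lay below all vehicle libraries. Estimated counts were 91 to 151 and 38 to 80. The fall was 0.80 ± 0.21 on the log2 scale, written as a fold of 0.575 with a 95% interval of 0.419 to 0.789 (edgeR adjusted p = 0.0356). The call was lost without vehicle 2 (adjusted p = 0.0503), vehicle 3 (0.0718), vehicle 4 (0.0769), vehicle 5 (0.0536), CK2i 2 (0.0737) or CK2i 5 (0.0735), and the value was -0.65 ± 0.21 without both CK2i 2 and 5 (0.150). With 1 surrogate variable it was -0.71 ± 0.29 (0.424). The span of the Ccr9 gene model overlaps those of 6 other annotated genes, 2 of them protein-coding and on the opposite strand (Slc6a20a and Lztfl1). Whether any exons overlap, and so whether reads could be shared, was not examined.

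Beside the values of Ccr9 stand those of cells known to carry it. Of 8 plasmacytoid dendritic cell markers 6 were tested and none passed, their median log2 fold change was -0.12, and their summed level was 60.0 to 77.2 FPKM in vehicle and 61.1 to 110.7 FPKM in CK2i libraries, most of it Bst2. Siglech, a surface lectin that defines these cells, was at 0.526 and 0.462 FPKM (edgeR adjusted p = 0.554). Of 11 T and NK cell markers 6 were tested and none passed. Of the 6, 3 were above 0, with a median log2 fold change of -0.14. The sums of the 11 were 42.5 to 80.4 and 58.7 to 108.7 FPKM, most of it Nkg7. Cd3d and Cd3e, which encode CD3 subunits of the T cell receptor complex, averaged 0.0900 and 0.0620 FPKM in vehicle libraries. Of 9 B and plasma cell markers 5 were tested and 1 fell, Jchain. Of the 5, 1 was above 0, with a median log2 fold change of -0.54. The sums of the 9 were 426 to 574.1 FPKM in vehicle and 224 to 372 FPKM in CK2i libraries. In this list 1 marker was also called lower without CK2i 2 and 5, where 1.2% of 14583 genes were called in either direction. Among all genes tested, 6.76% were called lower with all libraries. The part of these cells in the fall of Ccr9 was not tested.

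Ccrl2, an atypical receptor that binds chemerin and does not signal in the usual way, was at 1.84, 2.31, 2.25, 2.21 and 2.26 FPKM in vehicle 1 to 5 and at 2.23, 2.48, 2.89, 2.83 and 3.84 FPKM in CK2i 1 to 5. CK2i 5 was the highest, 4 of 5 CK2i libraries lay above all vehicle libraries in CPM, and CK2i 1 lay among them. The log2 difference of 0.39 ± 0.14 had a 95% interval of 0.07 to 0.70 and missed the threshold (edgeR adjusted p = 0.0877), and was 0.27 ± 0.12 without CK2i 2 and 5 (0.278).

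Ccr2, the receptor for Ccl2 that takes inflammatory monocytes out of the marrow, was at 25.7, 40.5, 36.1, 35.4 and 22.4 FPKM in vehicle 1 to 5 and at 37.8, 51.4, 28.9, 36.2 and 45.6 FPKM in CK2i 1 to 5. Vehicle 1 and 5 were lowest and CK2i 2 and 5 highest, with the other 6 libraries mixed between them. The log2 difference was 0.32 ± 0.19 with a 95% interval of -0.09 to 0.73 (edgeR adjusted p = 0.243), and 0.08 ± 0.18 without CK2i 2 and 5 (0.853). It was 0.21 ± 0.18 without CK2i 2 alone and turned to -0.19 ± 0.15 with 1 surrogate variable (0.488 and 0.693).

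Cx3cr1, the fractalkine receptor of patrolling monocytes and of precursors of macrophages and dendritic cells, was at 3.99, 6.25, 6.39, 4.93 and 3.54 FPKM in vehicle 1 to 5 and at 4.17, 5.19, 4.70, 3.28 and 5.00 FPKM in CK2i 1 to 5. The groups overlapped over most of their ranges. The log2 difference was -0.17 ± 0.18, with a 95% interval of -0.56 to 0.22 (edgeR adjusted p = 0.527). It ran from -0.27 without vehicle 5 to -0.07 without vehicle 3, and was -0.32 ± 0.20 without CK2i 2 and 5 (0.442) and -0.44 ± 0.22 with 1 surrogate variable (0.507). Its gene model overlaps 5 protein-coding genes, 3 of them on the same strand.

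Ccr1, a receptor for Ccl3, Ccl5 and Ccl9 on myeloid cells, was at 1.84, 2.46, 3.08, 1.98 and 3.07 FPKM in vehicle 1 to 5 and at 1.49, 2.48, 1.57, 2.41 and 2.66 FPKM in CK2i 1 to 5. CK2i 1 and 3 lay below the vehicle range and the other 3 within it. The log2 difference was -0.23 ± 0.21, with a 95% interval of -0.69 to 0.22 (edgeR adjusted p = 0.450), and was -0.46 ± 0.22 without CK2i 2 and 5 (0.299). It ran from -0.33 without CK2i 5 to -0.13 without CK2i 1, and was -0.65 ± 0.25 with 1 surrogate variable (0.393).

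Cxcr2, the receptor for Cxcl1 and Cxcl2 that draws neutrophils into blood, had the smallest standard error of the 8 tested receptors. It was at 3.59, 4.16, 3.95, 3.34 and 3.86 FPKM in vehicle 1 to 5 and at 3.40, 3.75, 3.85, 4.16 and 3.87 FPKM in CK2i 1 to 5, and the ranges nearly coincided. The log2 difference was 0.01 ± 0.08 (edgeR adjusted p = 0.971), and the 95% interval of the fold ran from 0.892 to 1.13. Without CK2i 2 and 5 it was -0.0057 ± 0.09 (0.986). Of 11 neutrophil markers 10 were tested, and 3 rose (S100a8, Mmp8 and Lcn2), with a median log2 fold change of 0.75 and sums of 40.8 to 131.2 FPKM in vehicle and 68.9 to 318.0 FPKM in CK2i libraries, the highest in CK2i 2 and 5. Among all genes tested, 6.43% were called higher. Ly6g, which defines mature mouse neutrophils, averaged 0.140 and 0.0600 FPKM and was not tested.

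Cxcr3, the receptor for Cxcl9 and Cxcl10 on activated lymphocytes, and Ackr3, a receptor that takes up Cxcl12 without G protein signals, were close to the limit of detection. Cxcr3 had estimated counts of 8 to 17 in vehicle and 10 to 18 in CK2i libraries, and a log2 difference of -0.03 ± 0.27 with a 95% interval of -0.63 to 0.57 (edgeR adjusted p = 0.947), so that folds within 0.645 to 1.48 cannot be told apart from no change at this depth. The difference was -0.33 ± 0.31 without CK2i 2 and 5 (0.608) and -0.52 ± 0.36 with 1 surrogate variable (0.648). Ackr3 had estimated counts of 6, 5, 6, 8 and 5 in vehicle 1 to 5 and of 5, 5, 10, 3 and 2 in CK2i 1 to 5, and was not tested. Its FPKM did not follow its counts, with 5 counts given as 0.15 FPKM in CK2i 1 and as 0.04 FPKM in CK2i 2, since RSEM divides by the length of the transcript forms to which it assigns reads.

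**Figure D2:**
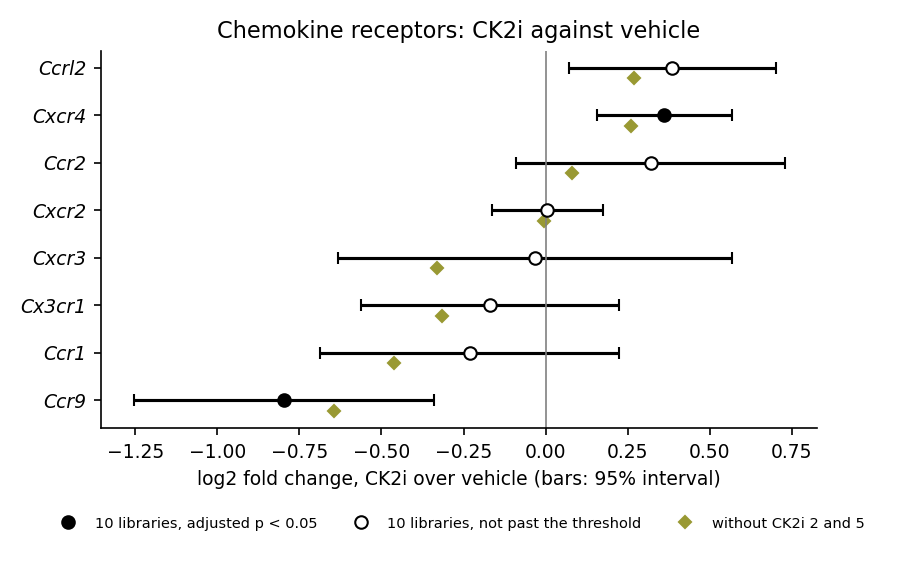
Log2 fold change of CK2i over vehicle (x axis) for the 8 tested receptors, with 95% intervals from edgeR on all 10 libraries; filled points passed an adjusted p of 0.05 and diamonds are the same difference without CK2i 2 and 5. Cxcr4 (0.36) and Ccr9 (-0.80) are filled, and without those libraries every value except that of Ccr9 lies farther to the left.

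In all, 3 ratios of receptors within a library were compared, each over Cxcr4, as log2 of FPKM + 0.1. The ratio of Cxcr2 to Cxcr4 was -4.29 ± 0.21 in vehicle and -4.67 ± 0.16 in CK2i libraries. Vehicle 4, at -4.54, lay within the CK2i range of -4.91 to -4.52, and the other 4 lay above it. The difference of -0.38 gave p = 0.0159 in an exact two-sided permutation test (adjusted p = 0.0238 over the 3 ratios; n = 5 per group, smallest possible p 0.00794). Cxcr2 alone had a log2 difference of 0.01 and Cxcr4 one of 0.36, so this ratio restates the rise of Cxcr4. The ratio of Ccr9 to Cxcr4 was -6.02 ± 0.21 and -7.09 ± 0.39 with no overlap, and its difference of -1.07 gave the smallest p that the exact permutation test allows, 0.00794 (adjusted p = 0.0238). In FPKM every CK2i library lay above every vehicle library for Cxcr4 and below for Ccr9. Their ratio could therefore not overlap, and its p adds nothing to those differences. The size of the ratio difference depends on the constant added, since Ccr9 is low, and was -0.74 with a pseudocount of 1 and -1.12 with CPM in place of FPKM. The ratio of Ccr2 to Cxcr4 was -1.28 ± 0.17 and -1.34 ± 0.25, a difference of -0.06 that did not pass (exact permutation p = 0.690). Without CK2i 2 and 5 the differences were -0.28 for Cxcr2, -0.84 for Ccr9 and -0.17 for Ccr2. None passed the exact permutation test (adjusted p = 0.107, 0.0536 and 0.268), which for 5 libraries against 3 cannot go below 0.0179.

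**Figure D3:**
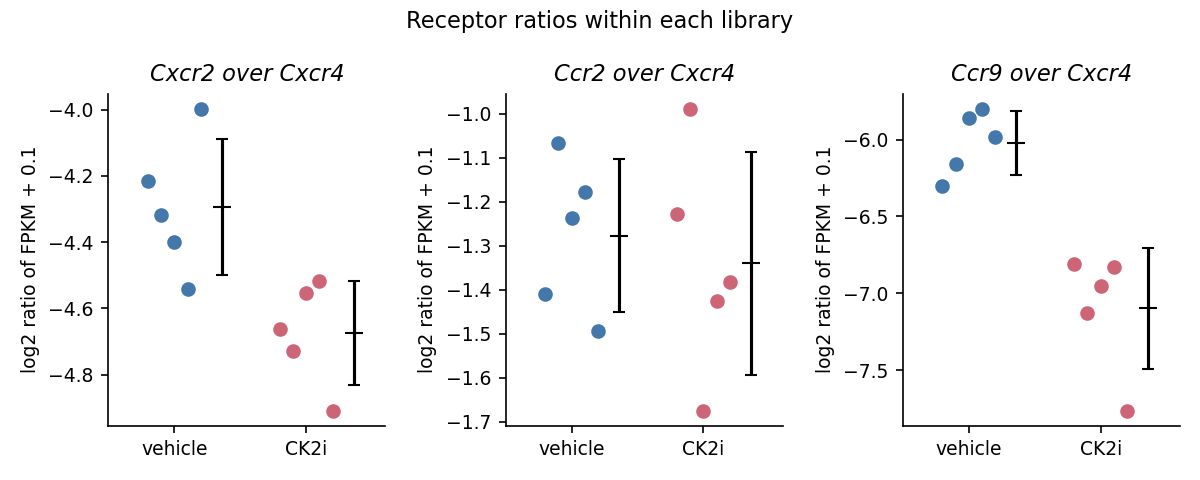
Log2 ratio of the FPKM + 0.1 of Cxcr2, Ccr2 and Ccr9 to that of Cxcr4 (y axes, which differ and do not start at 0) in each library; the bar beside each group is the mean ± SD. The groups are apart for Ccr9, overlap by 1 vehicle library for Cxcr2 and overlap throughout for Ccr2.

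The receptors did not vary as one set across the 10 libraries. Pearson's r of log2 CPM, given as a description since the points share libraries and the difference between groups, was highest between Cxcr4 and Ccrl2 (0.82) and between Cxcr4 and Ccr2 (0.82) and lowest between Ccr9 and Ccrl2 (-0.67) among the 28 pairs. Monocyte markers, among them Ly6c2 and F13a1, summed to 312.7 to 577.3 FPKM in vehicle and 473.2 to 1145 FPKM in CK2i libraries. The lowest of these sums was in vehicle 5 and the highest in CK2i 5, the libraries with the lowest and highest Cxcr4. Of those 9 markers 1 rose, Cd14, with a median log2 fold change of 0.45, where 6.43% of all genes tested were called higher. Promyelocyte markers rose in 5 of 5 (Mpo, Elane, Prtn3, Ctsg and Ms4a3), and summed to 1902 to 3907 FPKM in vehicle and 3594 to 5919 FPKM in CK2i libraries. Macrophage markers rose in 1 of 8, Adgre1, with sums of 12.2 to 35.1 and 21.0 to 57.8 FPKM. Erythroid markers rose in 3 of 7 (Slc4a1, Hbb-bs and Hba-a2), against 6.43% of all genes tested. Of these, 2 also passed without CK2i 2 and 5, where 1.2% of 14583 genes did. In the list 4 of 7 were above 0, with a median log2 fold change of 0.27. The most abundant erythroid marker, Tfrc, averaged 196.9 FPKM in vehicle and 166.4 FPKM in CK2i libraries. The sums of the 7 were 444.2 to 693.0 and 608.4 to 874.4 FPKM. None of 9 eosinophil, basophil and mast cell markers passed, and 4 of the 9 were above 0, with a median log2 fold change of -0.28. The most abundant of them, Prg2, averaged 743 FPKM in vehicle and 1505 FPKM in CK2i libraries. The sums of the 9 were 1021 to 1777 and 1034 to 3279 FPKM. Like those of the monocyte markers, these sums were lowest in vehicle 5 and highest in CK2i 5. Stem and progenitor markers fell in 1 of 9, where 6.76% of all genes tested were called lower, and rose in none. Their sums were 314.6 to 383.6 and 340.8 to 368.0 FPKM. The part of these cells in the rise of Cxcr4 was not tested.

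The protein-coding genes whose log2 CPM followed each receptor most closely over the 10 libraries were found by Pearson's r among all genes tested. For Cxcr4 they were Zfp382, Wls and Zdhhc20 (r = 0.98, 0.97 and 0.97), and for Ccr2 they were Zfp608, Smad4 and the G protein subunit gene Gng2 (0.98 each). Ccr9 was followed by Etv5, Txnip and Nudt12 (0.96, 0.93 and 0.93), and Ccrl2 by Zfp866, Tmem39a and Rsrp1 (0.95, 0.94 and 0.93). For Cxcr2 these were Pde4dip, Washc4 and Suox (0.93, 0.90 and 0.84), for Cxcr3 Zfp78, Itgb1bp2 and Sfi1 (0.94, 0.91 and 0.88), for Ccr1 Prss28, Arid4b and Zfp113 (0.93, 0.91 and 0.90) and for Cx3cr1 Lsp1, Dntt and Layn (0.92 each). Each is the top of a search over all genes tested with 10 points, which by itself gives high values.

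The 16 other chemokine receptors were all below 2 FPKM on average, and those that passed were lower in CK2i libraries. Of the 16, 10 were tested, 3 fell and none rose, with a median log2 fold change of -0.38. Among all genes tested, 6.76% were called lower and 6.43% higher. Cxcr1, which lies beside Cxcr2 on chromosome 1 and also binds neutrophil-attracting chemokines, was at 0.81, 0.53, 1.35, 0.84 and 1.18 FPKM in vehicle 1 to 5 and at 0.11, 0.26, 0.66, 0.31 and 0.27 FPKM in CK2i 1 to 5. CK2i 3 alone reached the vehicle range, and the fall was 1.54 ± 0.39 on the log2 scale (edgeR adjusted p = 0.0337). Cxcr6, the receptor for Cxcl16 and the nearest chemokine receptor gene to Ccr9, was at 0.53, 0.82, 0.72, 0.51 and 0.51 FPKM in vehicle 1 to 5 and at 0.28, 0.33, 0.40, 0.29 and 0.20 FPKM in CK2i 1 to 5, with no overlap. Its fall of 1.03 ± 0.22 (edgeR adjusted p = 0.0205) was called in all 10 fits that left out 1 library, though not without both CK2i 2 and 5 (0.0951). Ccr10 fell by 0.95 ± 0.28 (0.0474), from 0.496 ± 0.0820 to 0.258 ± 0.104 FPKM. Its groups met at 0.36 FPKM and just missed each other in CPM. Cxcr6 and Ccr10 each overlap 1 protein-coding gene on the opposite strand (Fyco1 and Cntnap1), and Cxcr1 overlaps none. Cxcr1 was called in 3 and Ccr10 in 2 of the 10 fits. At estimated counts of at most 53 per library in Cxcr1 and Cxcr6 and at most 36 in Ccr10, counting error adds to the spread between libraries.

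Of the 35 ligand genes listed, 16 were tested, 1 rose and 2 fell, with a median of -0.05. The share called over all genes tested was 13.2%. Ccl9, a ligand of Ccr1 made by myeloid cells, rose from 47.9 ± 8.43 to 66.4 ± 6.23 FPKM (log2 0.46 ± 0.11, edgeR adjusted p = 0.0283). Ccl3, which also binds Ccr1 and is known to restrain progenitor growth, fell from 32.7 ± 4.05 to 24.4 ± 3.22 FPKM (0.0297), and the platelet chemokine Ppbp from 787 ± 196 to 466 ± 135 FPKM (0.0385). Pf4 at 1425 ± 297 and 873 ± 288 FPKM, Ccl4 at 12.2 ± 1.85 and 8.77 ± 2.31 FPKM and Mif at 507 ± 30.9 and 529 ± 32.0 FPKM did not pass (adjusted p = 0.0535, 0.0894 and 0.463). Ppbp and Pf4 stand beside a list of 7 megakaryocyte markers that includes Pf4. Of these 3 fell, Tubb1 and Gp9 among them, with sums of 1692 to 2787 FPKM in vehicle and 891 to 2064 FPKM in CK2i libraries. Cxcl12, the ligand of Cxcr4 and Ackr3, ranged from 4.05 to 16.3 FPKM in vehicle and from 2.99 to 11.4 FPKM in CK2i libraries (adjusted p = 0.295). With each library left out in turn, Ccl9 was called 7 times of 10, Ccl3 5 times and Ppbp 2 times. Ccl1 and Ccl11 had a count of 0 in all libraries.

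Genes that carry the receptor signal rose in 4 and fell in 1 of 17 tested of 19, with a median log2 fold change of 0.25. Beside this, 6.43% of all genes tested were called higher and 6.76% lower. Elmo1, part of the complex that activates Rac in migrating cells, rose from 13.6 ± 2.31 to 25.05 ± 7.48 FPKM (log2 0.79 ± 0.18, edgeR adjusted p = 0.0241). The phospholipase gene Plcb2 rose by 0.66 ± 0.16 (0.0302), Pik3r6, an adaptor of phosphoinositide 3-kinase gamma, by 0.82 ± 0.23 (0.0428), and Prex1, a Rac exchange factor, by 0.34 ± 0.10 (0.0454). Ptk2b, the kinase Pyk2, fell by 0.18 ± 0.05 (0.0359). Of the 10 fits that left out 1 library, 7 called Elmo1, 4 called Plcb2, 4 called Pik3r6, 3 called Prex1 and 4 called Ptk2b. The G protein genes Gnai2, Gnai3, Gnb1 and Gnb2, at means of 61.7 to 334 FPKM in vehicle libraries, had log2 differences of 0.04, -0.00, 0.01 and -0.03 and did not pass. Gng2, Pik3cg, Dock2, Rac1, Rac2 and Vav1 also stood above 10 FPKM and did not pass, with log2 differences from -0.12 for Rac1 to 0.50 for Dock2 (adjusted p = 0.0587 for Dock2).

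Genes that switch receptors off moved both ways, with 1 higher and 2 lower of 14 tested of 15 and a median of 0.03. As above, 13.2% of all genes tested were called. Arrb1, the gene of beta-arrestin 1, fell from 64.2 ± 6.58 to 55.6 ± 4.97 FPKM (log2 -0.27 ± 0.06, edgeR adjusted p = 0.0219), in 9 of the 10 fits with 1 library fewer. Rgs10, a regulator that speeds the shut-off of Gi, fell from 150.5 ± 15.3 to 113 ± 17.3 FPKM (0.0300), and Rgs19, of the same family, rose from 28.3 ± 4.10 to 39.2 ± 5.46 FPKM (0.0494), in 4 and 2 of those fits. The receptor kinase genes Grk2 and Grk6 and beta-arrestin 2 (Arrb2) had log2 differences of 0.17, -0.02 and -0.13 and did not pass, nor did Rgs1, Rgs2 or Rgs18 (-0.01, 0.12 and -0.39).

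Other receptors that guide leukocytes rose in 2 and fell in 2 of 13 tested of 17, with a median of 0.12. Here too the share called over all genes tested was 13.2%. S1pr1, the sphingosine 1-phosphate receptor by which lymphocytes and progenitors leave for blood, was at 1.70, 1.81, 1.59, 1.82 and 1.90 FPKM in vehicle 1 to 5 and at 1.35, 1.09, 1.36, 1.37 and 1.19 FPKM in CK2i 1 to 5, with no overlap. It fell by 0.48 ± 0.10 on the log2 scale (edgeR adjusted p = 0.0184), in all 10 fits that left out 1 library. S1pr2 rose by 0.28 ± 0.08 (0.0451), Ptafr, the receptor of platelet-activating factor, rose by 0.74 ± 0.19 (0.0360), and the leukotriene receptor gene Ltb4r2 fell by 0.86 ± 0.22 (0.0356), in 1, 2 and 2 of those fits. None of the 18 genes called in these 5 lists passed without CK2i 2 and 5 (adjusted p for S1pr1 0.0888).

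**Figure D4:**
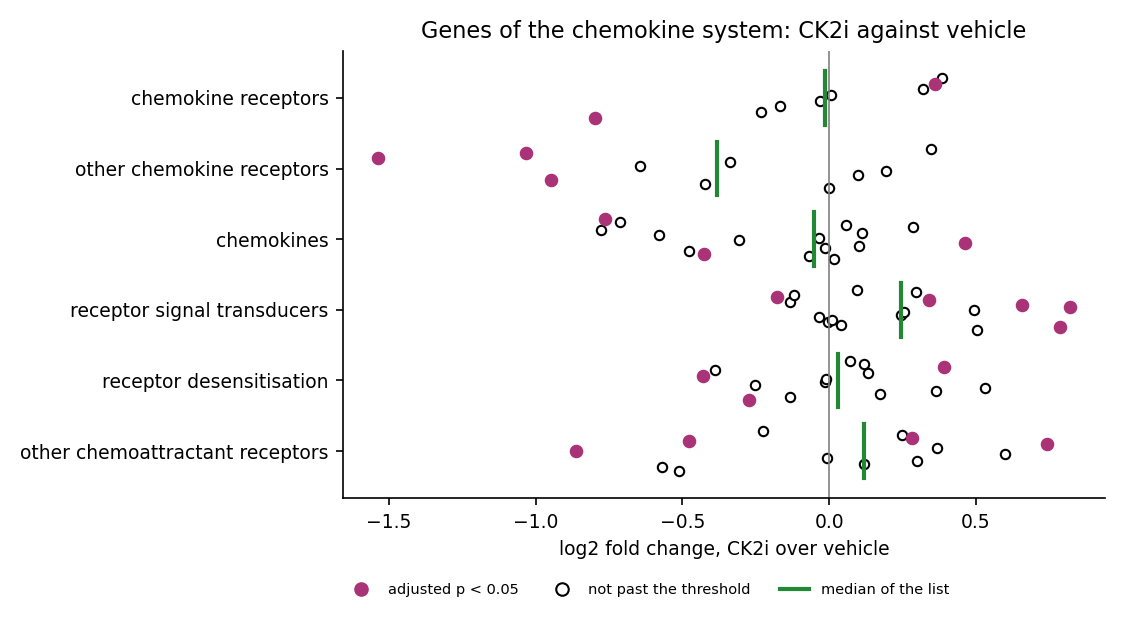
Log2 fold change of CK2i over vehicle (x axis) for the tested genes of the 9 receptors and the 5 other lists; filled points passed an adjusted p of 0.05 and the vertical bar is the median of each list. The medians run from -0.38 for the other chemokine receptors to 0.25 for the signal transducers, and the filled points of each list other than the other chemokine receptors lie on both sides of 0.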

How the data were processed

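The authors deposited, for each of 10 libraries, estimated counts per gene as whole numbers and FPKM values. Bowtie2 and RSEM 1.2.31 with build mm10 were used, per the submitters' processing notes, which also name DESeq2. For the transcript annotation, strand setting and filters nothing is stated there. Of 38887 identifiers, 37570 matched GENCODE M21 and 2 blank lines were left out.

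Estimated counts were tested with edgeR 4.0.16 (R 4.3.3): TMM scaling, filterByExpr (minimum count 10), quasi-likelihood test of group, two-sided, Benjamini-Hochberg over all 14346 genes kept, threshold 0.05. A standard error is the log2 fold change over the square root of F. The code was tested on simulated counts. The average biological coefficient of variation was 14.2%, so that at 34127674 counts or more counting error matters for low genes only. Alternatives used DESeq2 1.42.0, limma 3.58.1 and sva 3.50.0. Ratios used the deposited FPKM.

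The members and lists were chosen with earlier results of these data known. Genes named are the 9 members, the 3 genes most like each by Pearson's r, and from each other list up to 4 called per direction and all at a mean of 10 FPKM or more. Further genes (Cxcl12, Ccr1l1, Ccr3 and single markers) were named as ligands, neighbours or defining markers after their values were seen.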

Additional observations from a re-analysis of the deposited data

Results flagged for a closer look

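In 92 groups of 5 FPKM values, those of the receptors and of the list genes named by rule, 3 held a library far from the other 4, where chance gives about 5% of groups. Ccrl2 was at 1.84 FPKM in vehicle 1 and at 2.21 to 2.31 FPKM in the other vehicle libraries. Mif was at 584.9 FPKM in CK2i 1 and at 506.1 to 519.7 FPKM in the other CK2i libraries. Ltb4r2 was at 0.88 FPKM in CK2i 3 and at 0.51 to 0.61 FPKM in the other CK2i libraries. For Ccrl2 the difference between the groups without vehicle 1 was 0.33 on the log2 scale (edgeR adjusted p = 0.180), and for Ltb4r2 CK2i 3 is the CK2i library inside the vehicle range.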

How the results depend on the processing

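The count of all genes called (1892) was 3124 with DESeq2, 1197 and 1223 by limma on log2(FPKM + 1) and log2(FPKM + 0.1), 1139 with the replicate number as a block, 30 with 1 surrogate variable and 175 without CK2i 2 and 5, and 446 to 3198 when 1 library was left out. Of the receptors 2 were called with RLE or upper quartile scaling, no filter, DESeq2 and limma, 1 (Ccr9) with the replicate block, where Cxcr4 had an adjusted p of 0.0638, 0 with the surrogate variable and without CK2i 2 and 5, and 0 to 2 with 1 library left out. The 18 calls in the other lists became 0 with the surrogate variable and without CK2i 2 and 5, and 3 to 25 with 1 library left out. Same-numbered libraries did not deviate together (r of -0.16 to 0.23), and with the pairing by number the ratio differences of -0.38 for Cxcr2 and -1.07 for Ccr9 over Cxcr4 had an adjusted p of 0.188, in a sign-flip test that cannot go below 0.0625. Without CK2i 2 and 5 these ratios were -0.28 and -0.84. The ratio of Ccr2 to Cxcr4 ran from -0.15 to 0.020 with 1 library left out, reversing at 0.020 without CK2i 3. Directions near 0 turned for Cxcr2 (-0.012 with upper quartile scaling, -0.0042 without the filter, -0.028 with the surrogate variable, -0.0057 without CK2i 2 and 5, and -0.038 to 0.045 with 1 library left out) and for Cxcr3 (-0.19 to 0.071 with 1 library left out). Ccr2 turned from 0.32 to -0.19 with the surrogate variable. The cause was not tested. Rescaled to TPM, vehicle means were 62.2 for Cxcr4, 3.08 for Cxcr2 and 1.77 for Ccrl2, in the same order of receptors. The surrogate variable had a correlation of 0.70 with the group. Depth limits Cxcr3 and Ackr3.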
